A study of Mus musculus with 12 samples.

Results

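The cytosolic ribosomal protein genes, which encode the protein part of the large and small ribosomal subunits, were followed through every library. Genes were taken by symbol (Rpl, Rps, Rplp or Rpsa with the usual number and suffix, without S6 kinases and pseudogene names), and a mean of at least 100 expected counts over the 12 libraries was required. Of 55492 rows in the table, 83 had such a symbol and 77 passed the count limit: 43 genes of the large subunit, 31 of the small subunit and the 3 stalk genes Rplp0, Rplp1 and Rplp2. The 6 left out were Rpl10l at a mean of 0 counts, Rpl39l, Rps4l, Rpl32l and Rpl3l at 0.167 to 2.83, and Rpl6l at 72.1. Just inside the limit stood Rpl29 at 272.3 counts, Rps27l at 815.6 and Rps2 at 1815.6. All 77 genes were also among the 15052 genes that passed the filter on low counts and were tested.

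The cytosolic ribosome is built from ribosomal RNA and a set of proteins that are normally made in step with each other, because nearly all are needed in equal amounts. Most of their messenger RNAs begin with a stretch of pyrimidines at the 5′ end, the TOP motif, through which mTOR and the RNA-binding protein LARP1 control their translation and stability. In tumour cells the genes are among the most strongly transcribed of all, and their output is tied to growth.

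The cells were CCN6KOT, a mouse breast tumour line described as spindle metaplastic, so the control carries the same background as the other groups. All carried lentivirus and had been under puromycin. The 4 groups of 3 libraries each were a lentivirus control, titled PPGS-Vector and called Vector here; DNTCF4, a dominant negative TCF4 construct, which interferes with beta-catenin's nuclear partner, together with a vector; DNTCF4 with EZH2, the methyltransferase that places the H3K27 mark; and DNTCF4 with SET, an addition that the labels do not expand. The study's stated question was what changes with DNTCF4 and whether an added protein restores it. Separate cultures or clones are not mentioned in the labels, so p-values set differences between groups against the variation among these libraries, and that variation may be technical.

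Library totals ran from 23597545 to 33999982 expected counts. Tcf7l2, the gene of TCF4, averaged 11.0 CPM (counts scaled to a common library size) in Vector. With DNTCF4 it averaged 39.8 CPM alone, 45.4 with EZH2 and 35.2 with SET. Ezh2 averaged 57.8, 65.4, 449.6 and 545.4 CPM in the same order, so that it was high in both groups with an added protein. Among the fixed marker lists, 5 of 5 mesenchymal genes exceeded 1 CPM (their sum was 10350 to 11258 CPM in Vector and 4523 to 5058 in DNTCF4), as did 2 of 6 epithelial, 1 of 5 leukocyte and 1 of 3 endothelial genes, and both red cell genes had 0 counts in every library. Fn1 made up most of the mesenchymal sum, with means of 8716 CPM in Vector and 3858 in DNTCF4. Col1a1 (1002 and 279) and Vim (1024 and 645) were also lower in DNTCF4, while Zeb1 (74.1 and 87.1) and Cdh2 (1.67 and 2.03) had higher means there. DNTCF4 replicate 1 stood apart from its group: over all genes its chi-square per degree of freedom was 19.0 and 12.2 against replicates 2 and 3, where these differed from each other by 3.17. DNTCF4_EZH2 replicates 1 and 2 differed by 14.9, and all other pairs within a group by 2.55 to 5.89.

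The start-site sequences below are examples. They come from 2 genes with large differences between DNTCF4 and Vector (Rps27, Rpl35), 2 in the middle (Rps6, Rps10) and 2 that did not pass the test (Rplp2, Rpl15). Each covers 40 bases before and 20 bases from the annotated RefSeq start on GRCm38.p6, and capitals mark the longest run of C and T across the start on the transcribed strand. The runs printed span 9 to 18 bases. The 24 matched windows described below that lack a run of at least 8 are not represented.
Rps27, chr3:90213629-90213688, minus strand: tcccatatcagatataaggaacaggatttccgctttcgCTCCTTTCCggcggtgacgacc
Rpl35, chr2:39005112-39005171, minus strand: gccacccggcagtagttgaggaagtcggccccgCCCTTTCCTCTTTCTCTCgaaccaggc
Rps6, chr4:86857348-86857407, minus strand: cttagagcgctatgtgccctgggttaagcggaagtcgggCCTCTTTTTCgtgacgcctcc
Rps10, chr17:27635225-27635284, minus strand: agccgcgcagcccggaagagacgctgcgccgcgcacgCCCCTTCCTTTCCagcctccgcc
Rplp2, chr7:141447611-141447670, plus strand: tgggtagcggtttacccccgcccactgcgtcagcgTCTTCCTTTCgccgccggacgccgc
Rpl15, chr14:18270967-18271026, minus strand: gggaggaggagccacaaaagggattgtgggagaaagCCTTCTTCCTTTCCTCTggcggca
Windows of 300 bases were matched for 57 of the 77 genes. A run of at least 8 pyrimidines within 30 bases of the start was present in 33 of these 57 windows (57.9%), against 25.8% of the windows of all 27025 genes in the table. The 7-letter ETS core CCGGAAG, searched on both strands, was present in 42.1% of the ribosomal protein windows and in 9.93% of all windows. The YY1 core AAGATGG reached 15.8% against 7.28%, and the E-box CACGTG, which MYC binds, 10.5% against 8.09%. Between DNTCF4 and Vector, 26 of the 33 genes with the pyrimidine run were lower and passed the test (median log2 change −0.19), as were 21 of the 24 without the run (median −0.22). Over all tested genes 28.0% were lower in this contrast, and the median was 0.01. These values are as counted, without regard to transcript length, which is taken up below.

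By level per length of transcript (CPM per kb, over all 12 libraries) the genes ran from 16.3 for Rpl29 to 2170 for Rpl19, with a median of 569, and 74 of 77 reached 100. The highest were Rpl19 at 2170, Rpl8 at 2015, Rpl23 at 1942, Rpl13 at 1635, Rps10 at 1375 and Rplp1 at 1337 CPM per kb; lengths are those of 1 annotated transcript a gene. These low values include genes whose reads are largely assigned elsewhere, and RSEM, the counting tool, divides reads between near-identical sequences. Near copies, pseudogene rows at least 90% identical over at least 50% of their length, numbered 388 and belonged to 70 of the 77 genes. Counts on the copies made up 95.5% of the summed counts of Rps2, 91.4% of Rpl29, 55.0% of Rpl3, 47.5% of Rpl34, 46.3% of Rpl5 and 44.9% of Rps7, but under 1% for 45 genes, with a median of 0.736%. The levels of the 12 genes with 10% or more on copies are therefore uncertain.

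**Figure D1:**
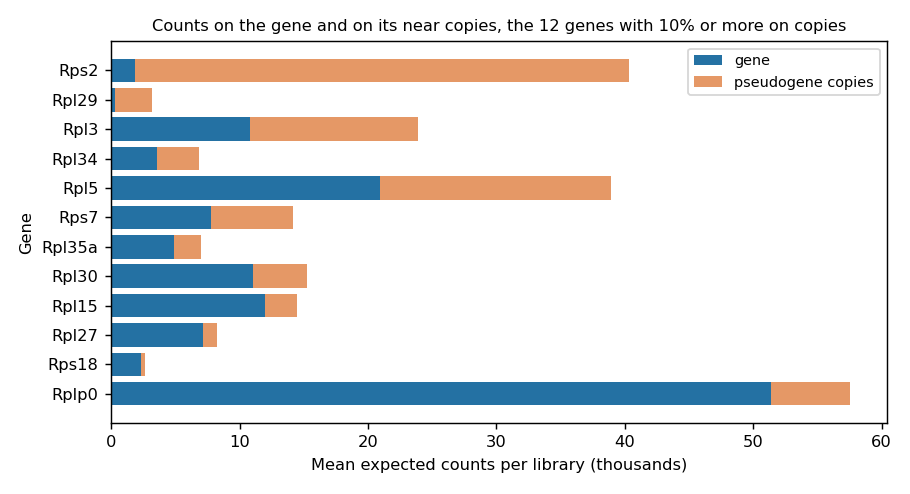
Mean expected counts per library on the gene itself and on its near copies, for the 12 ribosomal protein genes with 10% or more of the summed counts on copies. Rps2 and Rpl29 have most of their counts on copies, and Rplp0 has 10.7% there.

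As a share of all counts, the 77 genes took 4.90, 4.73 and 4.63% in the 3 Vector libraries. The shares were 3.82, 4.31 and 4.08% with DNTCF4, 4.03, 3.96 and 3.97% with DNTCF4_EZH2, and 4.09, 4.20 and 4.14% with DNTCF4_SET. The Vector libraries were above all 9 others, and DNTCF4 replicate 1 was the lowest of all. The genes moved together within a library: 10 of 77 were under their mean log2 level in Vector in Vector replicate 1, and 74 in replicate 3. Counts of genes that differ between groups are therefore not independent of each other. The mean was 4.75 ± 0.133% (SD, n = 3) in Vector against 4.07 ± 0.245% in DNTCF4, 3.99 ± 0.0378% in DNTCF4_EZH2 and 4.14 ± 0.0542% in DNTCF4_SET. Large subunit genes went from 2.85 ± 0.0764% in Vector to 2.48 ± 0.140% in DNTCF4, small subunit genes from 1.56 ± 0.0443% to 1.31 ± 0.0803%, and stalk genes from 0.341 ± 0.0119% to 0.271 ± 0.0255%. A share moves with whatever else fills the library: the ferritin gene Fth1 alone rose from 1.39% of counts in Vector to 3.13% in DNTCF4. Without Fth1 and the mitochondrially encoded genes in the denominator, the shares were 4.91 ± 0.137% and 4.27 ± 0.259%. In such bulk libraries, fewer cells of a type and less RNA per cell cannot be told apart.

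**Figure D2:**
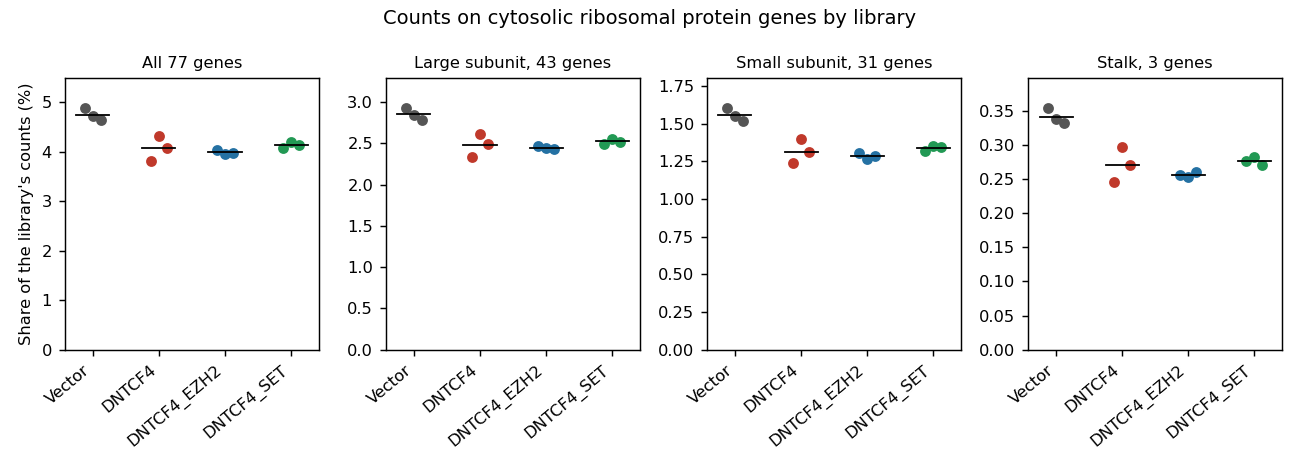
Share of each library's expected counts (%) on all 77 ribosomal protein genes, and on the large subunit, small subunit and stalk genes, by group; points are libraries and lines are group means. The 3 Vector libraries, at 4.63 to 4.90%, lie above the 9 others, which reach at most 4.31%.

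With DNTCF4 alone, 63 of the 77 ribosomal protein genes were lower than in Vector at an adjusted p under 0.05 in edgeR's quasi-likelihood test, 1 was higher and 13 did not pass. Over all tested genes 28.0% were lower and 29.5% higher, or 57.5% in either direction. The median log2 fold change of the ribosomal protein genes was −0.21, a difference of −13.6%, against 0.01 over all tested genes, and single genes ran from −0.49 to 0.13. The groups did not overlap, with DNTCF4 lower, for 56 genes (29.0% of all tested genes), and DNTCF4 was higher without overlap for 0 genes (30.2%; 59.3% in either direction). By subunit, 29 of 31 small subunit genes were lower (median −0.23), 32 of 43 large subunit genes (median −0.19) and 2 of 3 stalk genes (median −0.34).

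Transcript length moved with this result. Among other protein-coding genes, the median log2 change in the same contrast was −0.25 for the 93 with a transcript under 0.5 kb, of which 45.2% were lower, −0.18 from 0.5 to 0.75 kb, −0.19 from 0.75 to 1 kb, and 0.05 from 2.5 to 5 kb. In the first 3 of these ranges the ribosomal protein genes, whose median length was 681 bases, had medians of −0.24, −0.23 and −0.22. From 1 to 1.5 kb 11 of them had a median of −0.17, against −0.06 for other genes. From 1.5 to 2.5 kb 5 had a median of −0.12, against −0.02, and the 1 from 2.5 to 5 kb was at 0.05. Of 112 other genes that were both short (under 1 kb) and at 100 CPM or more, 56.2% were lower and 20.5% higher, with a median of −0.15. With each library's trend on length taken out, an alternative chosen after seeing the data, 19 of the 77 genes were lower (29.1% of all tested genes) and 12 higher (27.2%), and their median log2 change was −0.03. All 19 were among the 63, and 3 of the 63, Rpl26 and Rps21 among them, passed as higher instead. Among the largest of the 19 were Rpsa at −0.36, Rpl27a at −0.34, Rplp0 at −0.32, Rps2 at −0.26 and Rpl35 at −0.23, and the largest of the 12 were Rplp2 at 0.30, Rpl34 at 0.27 and Rpl29 at 0.26. The correction rests on annotated lengths, which need not be those of the RNA present (3706 bases for Rps20), and whether length, RNA quality or transcription set the change was not tested.

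**Figure D3:**
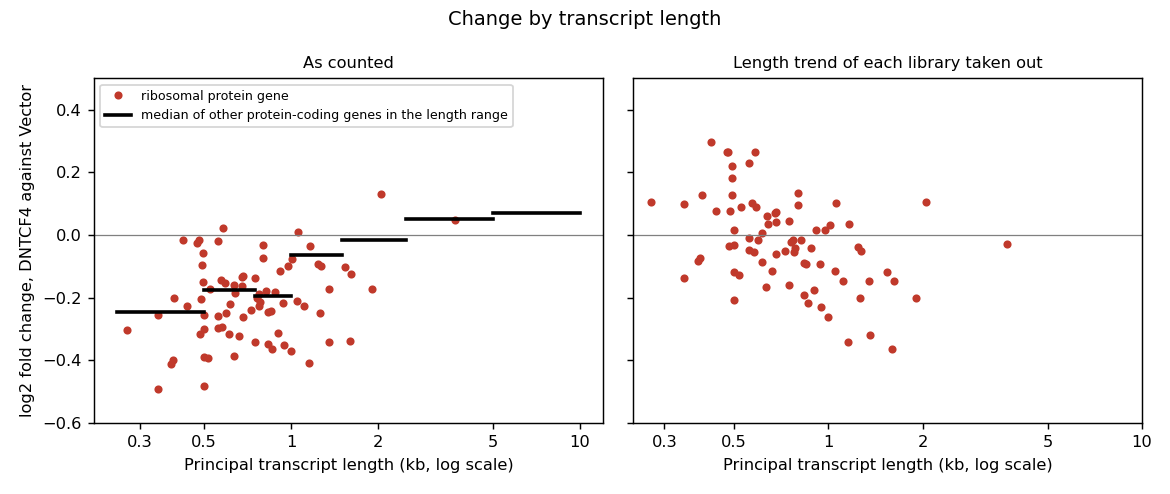
Log2 fold change of DNTCF4 against Vector for each ribosomal protein gene (points) by length of its principal transcript (kb, log axis), as counted and with each library's length trend taken out; black lines are medians of other protein-coding genes in each length range. As counted, the points under 1 kb lie around the medians of other short genes (−0.25 under 0.5 kb). After the trend is taken out the median of all points is −0.03.

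Among small subunit genes, Rps27 (ENSMUSG00000090733, chromosome 3, 90212522 to 90213651, minus strand), a zinc-finger protein of the 40S subunit, had 192.2, 167.0 and 152.3 CPM in Vector, against 106.6, 130.9 and 125.6 with DNTCF4, 128.9, 118.9 and 121.8 with DNTCF4_EZH2, and 135.1, 131.7 and 132.2 with DNTCF4_SET. All 3 Vector libraries were above the other 9. The log2 change in DNTCF4 was −0.49 ± 0.0775 (SE), adjusted p = 6.2e-05, but with the length trend taken out it was −0.14, adjusted p = 0.0529. Its paralog Rps27l (ENSMUSG00000036781, chromosome 9, 66946086 to 66949516, plus strand), known as a target of p53, was scarcer, at 39.2, 35.6 and 34.2 CPM in Vector and 28.4, 26.3 and 23.4 in DNTCF4. Its groups did not overlap either, and the change of −0.48 ± 0.0709 (adjusted p = 3.27e-05) was −0.21 (adjusted p = 0.0310) without the length trend. Rps6 (ENSMUSG00000028495, chromosome 4, 86854660 to 86857412, minus strand), the substrate of the S6 kinases, was uniform within Vector at 1024, 1025 and 1022 CPM and had 887.2, 946.3 and 871.5 in DNTCF4, a change of −0.18 ± 0.0353 (adjusted p = 0.000397), which was −0.04 (adjusted p = 0.309) without the length trend. Rpsa (ENSMUSG00000032518, chromosome 9, 120127689 to 120132369, plus strand), also known as the laminin receptor, had 1993, 1904 and 1911 CPM in Vector and 1414, 1634 and 1542 in DNTCF4. It was lower both as counted (−0.34 ± 0.0430, adjusted p = 7.26e-06) and without the length trend (−0.36, adjusted p = 1.41e-06). Rps19, a gene mutated in Diamond-Blackfan anaemia, and Rps29 were lower by log2 changes of −0.39 and −0.40; without the length trend Rps19 passed at −0.17 and Rps29 did not (−0.07). Rps27a (ENSMUSG00000020460, chromosome 11, 29545846 to 29548109, minus strand), which encodes ubiquitin fused to a ribosomal protein, had 431.0, 415.1 and 422.1 CPM in Vector and 406.4, 370.9 and 356.9 in DNTCF4, without overlap. It was lower by −0.16 ± 0.0472 (adjusted p = 0.00869), but its adjusted p was 0.0712 without DNTCF4 replicate 3, and its sign turned to 0.06 without the length trend. The 2 small subunit genes that did not pass were Rps12 at −0.06 and Rps20 at 0.05.

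The stalk of the large subunit, which recruits translation factors, holds Rplp0 and pairs of Rplp1 and Rplp2, and these genes did not move alike. Rplp0 (ENSMUSG00000067274, chromosome 5, 115559467 to 115563727, plus strand) had 2233, 2123 and 2087 CPM in Vector and 1552, 1853 and 1673 in DNTCF4, a change of −0.34 ± 0.0507 (adjusted p = 3.41e-05). Rplp1 (ENSMUSG00000007892, chromosome 9, 61913284 to 61914542, minus strand) had 874.7, 793.9 and 782.2 CPM in Vector and 531.5, 705.3 and 632.3 in DNTCF4, a change of −0.39 ± 0.0732 (adjusted p = 0.000311), which did not pass without the length trend (−0.12, adjusted p = 0.107). In both genes the groups were apart, with DNTCF4 replicate 1 the lowest library of all. Rplp2 (ENSMUSG00000025508, chromosome 7, 141447370 to 141451585, plus strand) had 397.6, 435.1 and 409.6 CPM in Vector and 409.8, 426.2 and 392.4 in DNTCF4. Those groups overlapped, and the change of −0.02 had a 95% interval from −0.12 to 0.09; no test of the difference between the stalk genes was made.

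Among large subunit genes, Rpl5 and Rpl11 travel together with 5S ribosomal RNA and, when unassembled, bind the p53 regulator MDM2. Rpl11 (ENSMUSG00000059291, chromosome 4, 136028265 to 136053428, minus strand) had 682.9, 648.5 and 646.9 CPM in Vector and 458.4, 566.5 and 529.6 in DNTCF4, with no overlap. It was lower by −0.35 ± 0.0568 (adjusted p = 8.98e-05), and by −0.19 (adjusted p = 0.00450) without the length trend. Rpl5 (ENSMUSG00000058558, chromosome 5, 107900502 to 107909005, plus strand) was the only gene of the 77 that passed as higher, at 710.1, 639.5 and 656.2 CPM in Vector and 698.3, 724.4 and 772.3 in DNTCF4. These groups overlapped, and the change was 0.13 ± 0.0470 (adjusted p = 0.0276). With its 6 near copies added to it the change was 0.05 ± 0.0317 (adjusted p = 0.169), and the call was also lost without Vector replicate 2 (adjusted p = 0.117), Vector replicate 3 (0.0944) or DNTCF4 replicate 3 (0.0979). It was lost as well with total-count scaling (0.0802), with scaling factors computed without the ribosomal protein genes (0.0672), with only the 6 libraries compared (0.0897) and without the length trend (0.0766). Rpl36, Rpl27a and Rpl32 had the largest differences of this subunit, at −0.41 ± 0.0800, −0.41 ± 0.0570 and −0.39 ± 0.0757; without the length trend Rpl27a passed at −0.34, and Rpl36 (−0.08, adjusted p = 0.209) and Rpl32 (−0.13, adjusted p = 0.0882) did not. Rpl19, the gene with the most counts per length, had 2018, 1916 and 1909 CPM in Vector and 1519, 1594 and 1500 in DNTCF4, a change of −0.34 ± 0.0350 (adjusted p = 7.75e-07) that was −0.16 without the length trend. At the other end, Rpl23 had 2167, 2025 and 1997 CPM in Vector and 1995, 2088 and 2144 in DNTCF4, which overlapped, and its change of 0.01 had a 95% interval from −0.07 to 0.09. Without the length trend it passed as higher, at 0.10 (adjusted p = 0.0314).

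**Figure D4:**
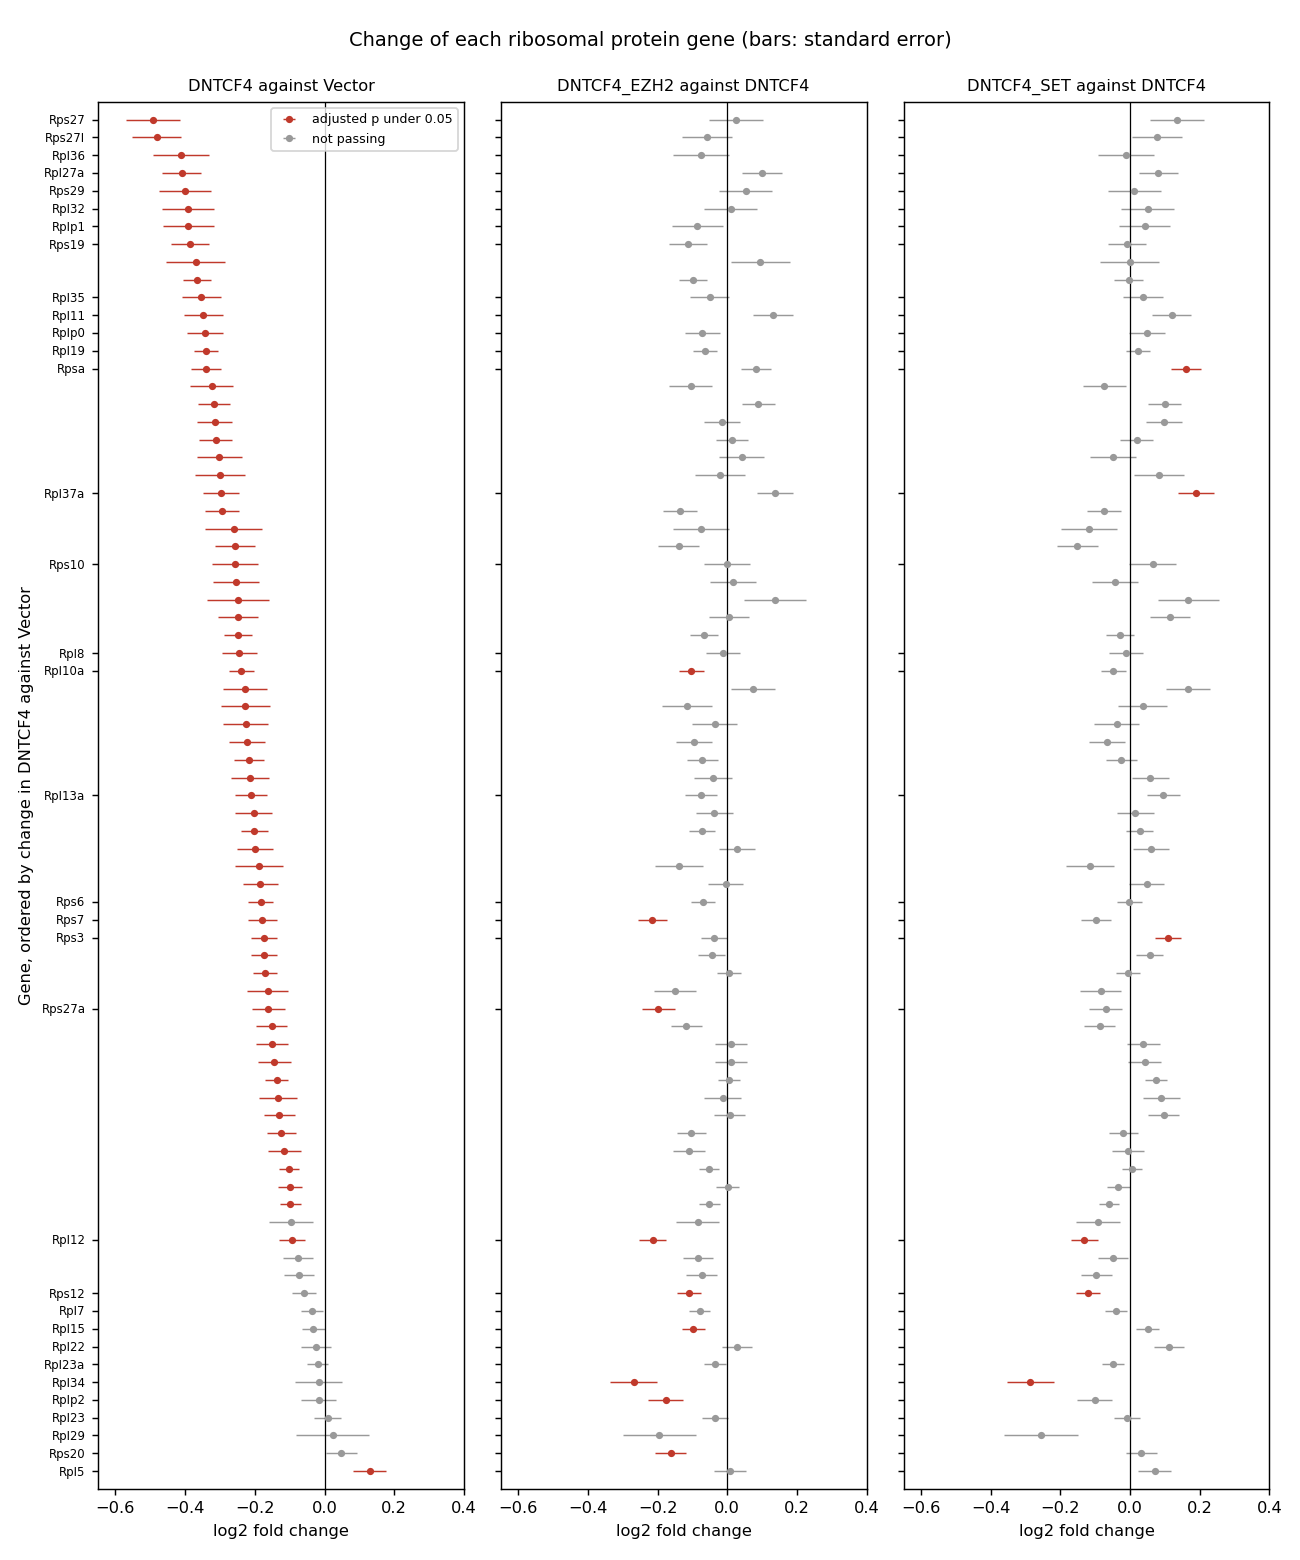
Log2 fold change of the 77 ribosomal protein genes in 3 comparisons, with standard errors, ordered by DNTCF4 against Vector, with the names of some of the genes described in the text; red points passed at an adjusted p under 0.05. In the first panel 63 red points lie below 0 and 1, Rpl5, above it; in the others 9 and 6 genes are red.

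**Figure D5:**
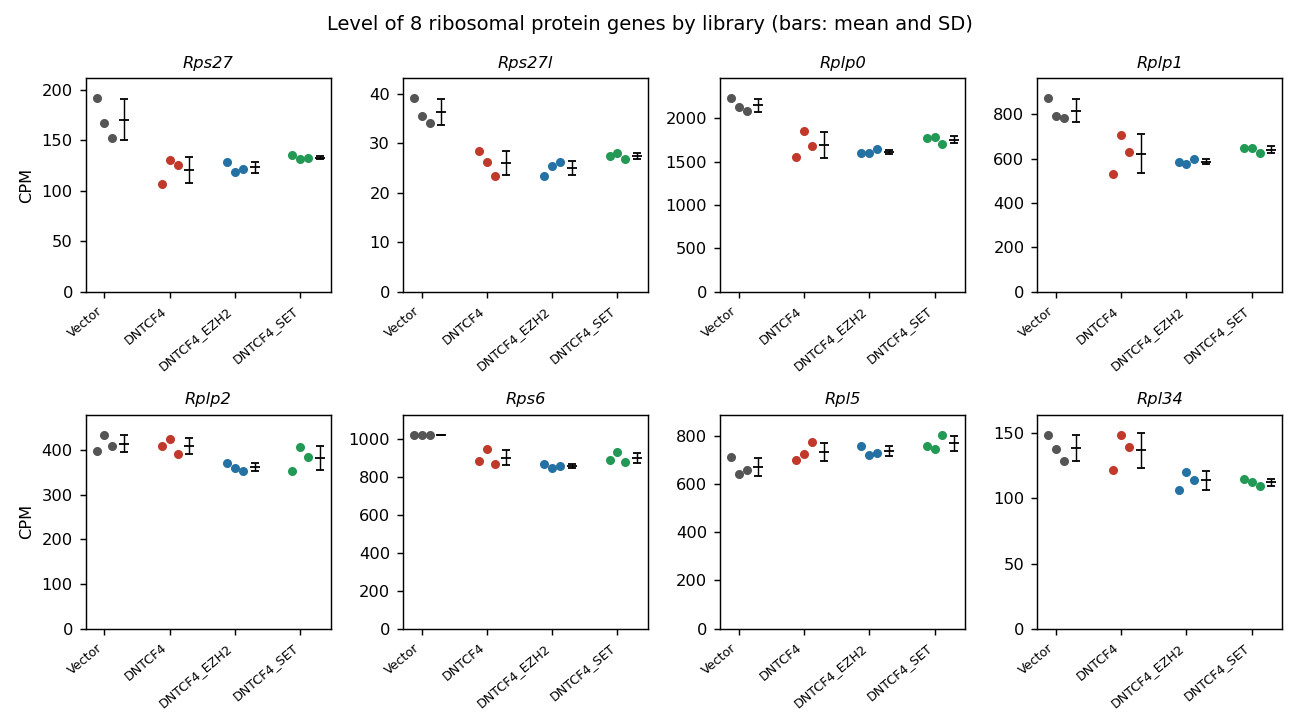
CPM of 8 ribosomal protein genes in each of the 12 libraries, by group, with the group mean and SD at the right of the points; every axis starts at 0. Vector is above the other groups for Rps27, Rps27l, Rplp0, Rplp1 and Rps6, overlaps DNTCF4 for Rplp2 and Rpl34, and has the lowest mean for Rpl5.

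With EZH2 or SET added to DNTCF4, most ribosomal protein genes were also lower than in Vector. Set against the same Vector libraries, DNTCF4_EZH2 had 71 genes lower (29.0% of all tested genes), 1 higher (28.7%; 57.7% in either direction) and a median log2 change of −0.26, and DNTCF4_SET had 60 lower (29.9%), 1 higher (28.1%; 58.0% in either direction) and a median of −0.19; the gene that was higher was Rpl5 in both. For 49 of the 77 genes all 3 Vector libraries were above the other 9, which held for 22.0% of all tested genes. Groups did not overlap, in either direction, for 74 genes with EZH2 (68.1% of all tested genes) and 62 with SET (66.1%). Among the largest falls with EZH2 were Rps27l at −0.54 ± 0.0705, Rps19 at −0.50, Rpl36 at −0.49, Rplp1 at −0.48, Rps27 at −0.47 and Rps25 at −0.43. With SET they included Rpl36 at −0.42 ± 0.0800, Rps18 and Rps27l at −0.41, Rps19 and Rps29 at −0.39, Rps26 at −0.38 and Rps2 at −0.37. Without the length trend, 45 and 32 genes were lower (32.6 and 33.4% of all tested genes), with medians of −0.15 and −0.08. All small subunit and stalk genes were lower in DNTCF4_EZH2 than in Vector, including Rplp2 at 372.0, 361.2 and 354.1 CPM (−0.19 ± 0.0503, adjusted p = 0.00420), a change whose sign turned to 0.01 without the length trend. Rpl5 had 757.8, 720.0 and 729.3 CPM with DNTCF4_EZH2 and 756.3, 745.0 and 804.6 with DNTCF4_SET, both clear of Vector (0.14 ± 0.0470, adjusted p = 0.0203, and 0.20 ± 0.0470, adjusted p = 0.00184). The call with EZH2 was lost without Vector replicate 2 (adjusted p = 0.0916), Vector replicate 3 (0.0747) or DNTCF4_EZH2 replicate 1 (0.0567), without the length trend (0.0660) and with scaling factors computed without the ribosomal protein genes (0.0516). With its copies added, Rpl5 was at 0.01 (adjusted p = 0.804) and 0.11 (adjusted p = 0.00725). Rpl22, Rpl23, Rpl23a and Rpl29 passed as lower in none of the comparisons with Vector. Without the length trend, Rpl22 passed as higher than Vector in all 3 (0.26 with DNTCF4, 0.19 with DNTCF4_EZH2 and 0.28 with DNTCF4_SET). Rpl23a did so too, at 0.23, 0.11 and 0.10 in the same order. Rpl23 (0.10) and Rpl29 (0.26) then passed as higher in DNTCF4 only.

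Adding EZH2 to DNTCF4 left 9 genes lower than with DNTCF4 alone (12.5% of all tested genes) and, in edgeR's test, 0 higher (13.0%). DESeq2 gave 11 lower (5.49% of the 31355 genes with a count) and 0 higher (5.76%). At an unadjusted p under 0.05 in edgeR's test the counts were 17 lower and 2 higher. The share of all tested genes at that unadjusted threshold is not given here. The median log2 change of the 77 genes was −0.05. Libraries did not overlap for 21 genes (39.1% of all tested genes in either direction), of which 1 was higher (19.9%). Without DNTCF4 replicate 1, the library that stood apart, 30 genes were lower (14.2% of all tested genes), and without the length trend 34 lower (15.6% of all tested genes). Without DNTCF4_EZH2 replicate 2 or 3 the count was 5 (18.3% of all tested genes in either direction) and 4 (17.7%), and 1 of the 5 was higher. Without DNTCF4 replicate 2 it was 11 (25.8%), of which 4 were higher. Rpl34 (ENSMUSG00000062006, chromosome 3, 130726831 to 130730398, minus strand) had 122.1, 149.0 and 139.8 CPM with DNTCF4 and 106.7, 120.7 and 114.1 with DNTCF4_EZH2, which did not overlap. The change was −0.27 ± 0.0680 (adjusted p = 0.00916); it was −0.25 ± 0.0532 (adjusted p = 0.00240) with its copies added and its adjusted p was 0.0612 without DNTCF4_EZH2 replicate 1. Rpl12 (ENSMUSG00000038900, chromosome 2, 32961559 to 32965345, plus strand), part of the base of the stalk, had 702.1, 659.6 and 654.6 CPM against 587.9, 585.3 and 564.8, again without overlap, a change of −0.21 ± 0.0384 (adjusted p = 0.00077). Rps7 and Rps27a fell by 0.21 and 0.20 on the log2 scale, Rplp2 by 0.18, Rps20 by 0.16, Rps12 by 0.11, and Rpl10a and Rpl15 by 0.10. Of these Rplp2, Rps12, Rps20, Rpl10a and Rpl15 lost their calls when single libraries were left out. The Rpl15 call (adjusted p = 0.0433) was also lost with total-count scaling (0.0686), with no filter on low counts (0.158) and with only the 6 libraries compared (0.0999). Rps27, Rplp0 and Rps6, 3 genes that as counted were lower in DNTCF4 than in Vector, differed by 0.02, −0.07 and −0.07 with EZH2 added (adjusted p from 0.169 to 0.857). The 95% interval for Rps27 ran from −0.14 to 0.19.

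Adding SET left 3 genes lower than with DNTCF4 alone (13.3% of all tested genes) and 3 higher (12.7%), with a median of 0.01. The lower genes were Rpl34 at 114.9, 112.6 and 109.7 CPM (−0.29 ± 0.0682, adjusted p = 0.00623), Rpl12 at 597.6, 603.6 and 639.2 CPM (−0.13 ± 0.0384, adjusted p = 0.0200) and Rps12 at 491.7, 497.4 and 482.0 CPM (−0.12 ± 0.0342, adjusted p = 0.0172). The higher genes were Rpl37a, at 85.6, 94.4 and 85.6 CPM with DNTCF4 and 97.2, 100.6 and 105.1 with SET added (0.19 ± 0.0515, adjusted p = 0.0137), Rpsa at 1728, 1715 and 1687 CPM (0.16 ± 0.0429, adjusted p = 0.0125) and Rps3, a protein of the mRNA entry site, at 735.2, 753.6 and 780.4 CPM (0.11 ± 0.0374, adjusted p = 0.0431). For none of these 6 genes did the libraries with SET overlap those with DNTCF4; 17 of the 77 had no overlap in either direction (37.2% of all tested genes). Rpsa with SET lay between DNTCF4 and Vector, while Rpl37a overlapped Vector, whose libraries were at 112.3, 109.5 and 104.6 CPM. Without DNTCF4 replicate 1 the count was 14, with 11 lower (15.4% of all tested genes) and 3 higher (15.5%). Without DNTCF4 replicate 2 it was 18, with 15 higher (11.7%) and 3 lower (13.2%). It was 3 without DNTCF4_SET replicate 1 (19.0% in either direction) or 3 (19.7%), and 19 without the length trend (17 lower, against 16.1% of all tested genes, and 2 higher, against 10.4%). Each of these genes except Rpl34 lost its call without at least one single library.

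Between the 2 groups with an added protein, DNTCF4_EZH2 had 4 genes lower than DNTCF4_SET (2.17% of all tested genes) and 0 higher in edgeR's test (3.00%, or 5.16% in either direction). DESeq2 gave 7 lower (1.61% of the 31355 genes with a count) and 0 higher (1.33%). At an unadjusted p under 0.05 in edgeR's test there were 16 lower and 0 higher. Shares of all tested genes at unadjusted thresholds are not given here, and the 2.17 and 3.00% do not apply to such counts. The median log2 change was −0.06, and the libraries did not overlap, with DNTCF4_EZH2 lower, for 33 of the 77 genes (15.3% of all tested genes). As the genes moved together within a library, these are not 33 independent results. Library medians, as log2 difference from Vector, were −0.24, −0.25 and −0.26 with EZH2 and −0.23, −0.19 and −0.19 with SET. The 4 genes were Rps20 (359.9, 352.8 and 358.1 CPM against 405.1, 394.9 and 426.1, −0.20 ± 0.0448, adjusted p = 0.0193), Rpl13a (−0.17 ± 0.0465, adjusted p = 0.0463), Rps3 (−0.15 ± 0.0374, adjusted p = 0.0323) and Rpl15 (393.2, 389.9 and 388.5 CPM against 417.8, 430.2 and 449.6, −0.15 ± 0.0333, adjusted p = 0.0177). Leaving out any 1 of the 6 libraries left at most 1 gene: 0 without any DNTCF4_EZH2 library or DNTCF4_SET replicate 3 (7 to 12 genes lower at an unadjusted p under 0.05) and 1 without DNTCF4_SET replicate 1 or 2. A fit on these 6 libraries alone gave 24 genes, all lower, and called 7.65% of all tested genes lower and 7.39% higher, against 2.17% and 3.00% with all 12 libraries. Without the length trend 4 were lower (2.05% of all tested genes) and 0 higher in edgeR's test (2.98%).

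Of 7 genes listed as ribosomal protein genes although their symbols fall outside the pattern, 5 were lower in DNTCF4 than in Vector (median −0.29), as were 28.0% of all tested genes. Rps3a1, a core small subunit gene, had 1240, 1165 and 1150 CPM in Vector and 962.2, 982.2 and 962.9 in DNTCF4 (−0.29 ± 0.0333, adjusted p = 2.57e-06). Fau, which fuses a ubiquitin-like protein to a ribosomal one, was at 0.04 ± 0.0433 (adjusted p = 0.399). Paralogs by name were among the lower genes, with values that can be set beside those of their counterparts. Whether each of these proteins belongs to the mature ribosome was not examined. Rpl22l1 was at −0.48 ± 0.0879 (adjusted p = 0.000277) where Rpl22 was at −0.02, Rpl7l1 at −0.26 ± 0.0395 where Rpl7 was at −0.04, and Rpl36al at −0.49 ± 0.0487 where Rpl36a was at −0.32. These values are as counted, with the length trend left in, and the differences within pairs were not tested. Rps27rt, a retrogene, had under 2 CPM and did not pass (adjusted p = 0.229).

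Other genes with TOP messenger RNAs were also tested: of 20 translation factors and partners, 9 were lower and 1 higher in DNTCF4 than in Vector (median −0.07). Over all tested genes 28.0% were lower and 29.5% higher in this contrast, which applies to each list below. The values of these lists are as counted, with the length trend left in. Tpt1, a translationally controlled tumour protein, was lower by −0.31 ± 0.0333 (adjusted p = 1.11e-06), Rack1, a scaffold on the small subunit, by −0.28 ± 0.0452 (adjusted p = 8.87e-05), Eif3l by −0.23 and Btf3 by −0.20. Of 19 regulators of TOP mRNA translation, 7 were lower and 8 higher: Rheb, the GTPase that activates mTOR, was at −0.51 ± 0.0385 and Larp1b at −0.49 ± 0.0588, while Tia1 and Tial1, which bind TOP messages under stress, were at 0.56 ± 0.0486 and 0.36 ± 0.0465. Of 12 chaperones and importins of ribosomal proteins, 6 were lower and 1 higher. Rpf2 and Rrs1, which bring the 5S particle with Rpl5 and Rpl11 into the pre-ribosome, were at −0.42 ± 0.0715 and −0.24 ± 0.0408, Heatr3, which carries Rpl5 to the nucleus, was at −0.53 ± 0.0633, and the importin Ipo5 was at 0.25 ± 0.0440. Rrs1 was lower again with EZH2 added to DNTCF4 (−0.31 ± 0.0411, adjusted p = 5.9e-05) and with SET added (−0.34 ± 0.0413, adjusted p = 3.0e-05). Of 7 tested transcription factors tied to these promoters, Ets1 (0.48 ± 0.0408), Sp1 (0.29 ± 0.0456) and Gabpa (0.26 ± 0.0648) were higher in DNTCF4 and 0 were lower in edgeR's test; Myc, which drives ribosome synthesis, was at −0.08 ± 0.0645 (adjusted p = 0.325). Mitochondrial ribosomal protein genes, a separate machine encoded in the nucleus, had 44 of 78 lower and 4 higher (median −0.17), with Mrps15 at −0.47 ± 0.0473 and Mrpl49 at 0.40 ± 0.0456.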

How the data were processed

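The RNA of 12 samples was analysed from the authors' deposited gene table of RSEM expected counts, not normalised, and from their deposited table of rlog values on a log2 scale, which served 1 alternative. Cutadapt 2.3, FastQC 0.11.8, STAR 2.7.8a, RSEM 1.3.3, DESeq2 and the GRCm38 build are named in the submitters' processing notes, without role or order; use of strand is not given in the sources used. RSEM shares reads between near-identical sequences, and the mRNA of a gene and of an antisense partner may not be told apart. Groups and replicate numbers come from the sample titles, and columns were matched by sample description. Rounded counts were fitted with edgeR 4.0.16 (R 4.3.3) by quasi-likelihood with TMM scaling over all 12 libraries, 1 mean a group (8 residual degrees of freedom), after filterByExpr (minimum count 10) kept 15052 genes. In the main fit, p-values were adjusted by Benjamini-Hochberg over those genes, with a threshold of 0.05. Each alternative was adjusted over its own genes, and its shares of all tested genes refer to them. These were 31355 with no filter, many of them with few counts, and 21754 for rlog values. They were 15302 to 15675 with 1 library left out, 14872 with copies found by sequence added and 14295 to 14594 with 6 libraries. For DESeq2 the shares refer to all 31355 genes with a count. Its default filter can leave out low-count genes before adjusting, so its shares may be understated. The 3 comparisons with Vector share the Vector libraries, and both with DNTCF4 share the DNTCF4 libraries. CPM was computed with the TMM factors. Counts of same-group libraries never agreed within sampling noise. The script was tested on simulated data. Positions, biotypes and principal transcript lengths come from GENCODE M21 on GRCm38, and copies were found with blastn 2.17.0. Alternatives used limma 3.58.1, DESeq2 1.42.0, other scalings, no filter, copies added, a replicate block, a length trend fitted by loess (span 0.3) and single libraries left out.

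Genes named in each comparison were the 8 largest rises and falls among those that passed without overlap, the genes against the majority, the stalk and 5S genes, Rps6, Rpsa, Rps27a, paralog pairs, and those with the highest level per length; genes named only for their copies or for their value without the length trend, were added after their values were seen. Members and lists were chosen with earlier results of these data known, so no list is independent evidence. Some genes of these lists are counted but not reported by name here.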

Additional observations from a re-analysis of the deposited data

How the results depend on the processing

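Taking out each library's length trend, chosen after seeing the data, moved the number of ribosomal protein genes that passed to 31 for DNTCF4 against Vector. The number was 34 with EZH2 and 19 with SET when compared with DNTCF4 alone, and 47 with EZH2 and 37 with SET when compared with Vector. Over all tested genes, 56.4% then passed in either direction for DNTCF4 against Vector, and 26.5% (EZH2) and 26.4% (SET) against DNTCF4. Against Vector these shares were 57.1% with EZH2 and 57.4% with SET. Median log2 changes became −0.0312 for DNTCF4 against Vector, −0.11 for EZH2 added to DNTCF4, and −0.15 (EZH2) and −0.0754 (SET) against Vector; for SET added to DNTCF4 the sign turned, from 0.01 to −0.04. Values under 0 went from 73 of 77 genes to 45 for DNTCF4 against Vector, and from 38 to 54 for SET added to DNTCF4. Signs turned for 30 of the 77 genes in DNTCF4 against Vector, among them Rps27a, to 0.0595, and for 8 in DNTCF4_EZH2 against Vector, among them Rplp2, to 0.0056. limma on rlog values, which shrink differences by construction, gave medians of −0.15, −0.17 and −0.12 for DNTCF4, DNTCF4_EZH2 and DNTCF4_SET against Vector. DNTCF4_SET against DNTCF4 gave 12 genes with no filter (13.8% of all tested genes) and 2 with only the 6 libraries compared (17.7%). DNTCF4_EZH2 against DNTCF4_SET gave 7 with DESeq2 (2.94% of the 31355 genes with a count) and 24 with only the 6 libraries. The cause was not tested. Replicate numbers did not pair the samples (correlations of same-numbered libraries from −0.09 to 0.15 over 18 pairs, with 3 of 12 libraries closest to their own number). With the replicate block the counts were 63, 7, 5, 70 and 60 in the order above and 2 for DNTCF4_EZH2 against DNTCF4_SET. The shares of all tested genes in either direction were 57.0, 24.7, 24.8, 56.8, 57.1 and 4.24% in the same order. Leaving out 1 library gave 46 to 64 genes in DNTCF4 against Vector, 58 to 71 and 46 to 62 for DNTCF4_EZH2 and DNTCF4_SET against Vector, 4 to 30 and 3 to 18 for these against DNTCF4, and 0 to 1 for DNTCF4_EZH2 against DNTCF4_SET. Medians ran from −0.27 to −0.17, −0.29 to −0.22, −0.24 to −0.16, −0.08 to −0.01, −0.03 to 0.05 and −0.07 to −0.04 in that order. Over all tested genes the shares in either direction were 51.6 to 59.2%, 51.7 to 52.4% and 51.5 to 53.2% for the comparisons with Vector. For the others they were 17.7 to 28.6%, 18.6 to 30.9% and 2.29 to 2.81%, again in that order. The other scalings, the addition of copies and the remaining settings kept these counts within 1.5 times. Rpl29, at a mean of 9.51 CPM with most of its reads on copies, is the gene whose depth limits it most (SE of 0.105 in DNTCF4 against Vector).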
